A study of Homo sapiens with 6 samples.

Results

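The control cells described here are HSC-3, an established human cell line of oral squamous cell carcinoma, sequenced as the reference of a study of the transcription factor IRF9. They were chosen by their titles, which put 3 of the 6 libraries of the series in the control group. The other 3 libraries, from HSC-3 overexpressing IRF9, enter none of the values below. The controls carry no overexpression label, the design text speaks of wild-type cells, and no source used here says whether they held an empty vector. Nothing in the labels says that the 3 libraries came from separate cultures, so the spread between them may be technical.

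Oral mucosa is covered by a stratified squamous epithelium, in which proliferating cells sit on a basement membrane and differentiate as they move towards the surface. Basal cells build their intermediate filaments from the type II keratin KRT5 paired with the type I keratin KRT14, and depend on the transcription factor p63, encoded by TP63. Suprabasal cells replace these keratins with others and switch on the cornified envelope genes, whose proteins are cross-linked into the surface layer. Carcinomas of this epithelium keep parts of both programmes to differing degrees.

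The 3 libraries held 77257645, 74626641 and 61645349 counts over the 60612 genes of the deposited tables, of which 19937 were protein-coding. Levels are given as FPKM, fragments scaled to the length of the transcript and the size of the library, which lets levels of different genes be set side by side. A gene was called expressed when it reached 1 FPKM in all 3 libraries and silent when it had 0 counts in all 3. By these rules 11024 protein-coding genes were expressed (55.3%), 4213 were silent (21.1%) and 4700 lay in between. A count of 0 allows up to 3 counts per library, or 0.0388 to 0.0487 CPM (counts scaled to the library total), and this limit covers counting error only.

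The transcriptome was concentrated in few genes. The 10 highest genes held 14.3% ± 0.441 of the summed FPKM, the 100 highest 34.9% ± 0.601 and the 1000 highest 64.9% ± 0.553 (mean ± SD, n = 3, as are all such values below). Among protein-coding genes, 494 reached 100 FPKM in every library and 33 reached 1000 FPKM. The 37 mitochondrially encoded genes held 15.2% ± 0.514 of the summed FPKM and 6.04% ± 0.253 of the counts, which are not per length. MT-CO2, a subunit of cytochrome c oxidase, had the highest level of all genes, at 9263, 8718 and 8241 FPKM in the 3 libraries. The next were MT-ATP8 at 7173 ± 623 FPKM, MT-ND4 at 6885 ± 235 FPKM and MT-ATP6 at 6564 ± 233 FPKM. MT-ATP8 overlaps MT-ATP6, and MT-ND4L overlaps MT-ND4, so reads shared by these pairs could have been split either way. MT-ND6 was the lowest of the 13 mitochondrial protein-coding genes, at 452, 373 and 363 FPKM.

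Outside the mitochondrial genome, the 20 highest genes fell into a few recognisable groups. FTH1, the heavy chain of the iron store ferritin, led at 4431, 4341 and 4226 FPKM. KRT5 came next, at 3287, 3228 and 3196 FPKM, followed by the glycolytic enzyme GAPDH at 2944, 2886 and 2906 FPKM. These ranges did not overlap. KRT14 had 2641, 2602 and 2604 FPKM and S100A9 had 2690, 2611 and 2516 FPKM. Their ranges overlapped, so their order is not resolved. KRT17, a type I keratin of activated and basal keratinocytes, had 2139, 2095 and 2065 FPKM, below both in every library.

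S100A9 and its partner S100A8 form calprotectin, a calcium- and zinc-binding complex of neutrophils and activated keratinocytes. S100A8 had 1642, 1478 and 1482 FPKM, below S100A9 in every library. Glycolysis supplied 5 of the 20 highest genes. Beside GAPDH these were LDHA at 1503 ± 32.9 FPKM, ENO1 at 1346 ± 3.7 FPKM, PKM at 1269.7 ± 20.5 FPKM and ALDOA at 1228 ± 8.72 FPKM. The 17 glycolytic enzymes counted held 2.49% ± 0.0195 of the summed FPKM, against 8.56% ± 0.155 for the 84 cytosolic ribosomal protein genes. IGFBP3, a secreted binding protein of insulin-like growth factors, had 1224, 1224 and 1251 FPKM. MT2A, a metal-binding metallothionein, had 1251, 1174 and 1176 FPKM, and GSTP1, a glutathione transferase, had 1137, 1128 and 1153 FPKM. The other 6 genes serve translation, the actin skeleton, antigen presentation and protein folding. The elongation factor EEF1A1 had 1793 ± 69.9 FPKM and the ribosomal protein gene RPS2 1390.4 ± 16 FPKM. ACTB had 1512 ± 81.2 FPKM and TMSB10, which binds actin monomers, 1396 ± 88.7 FPKM. B2M, the light chain of MHC class I, had 1156 ± 59.9 FPKM and the prolyl isomerase PPIA 1139 ± 31.4 FPKM. From S100A8 downwards, the ranges of neighbours in this order overlapped, except that RPS2 lay above ENO1 and ENO1 above PKM in every library.

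**Figure D1:**
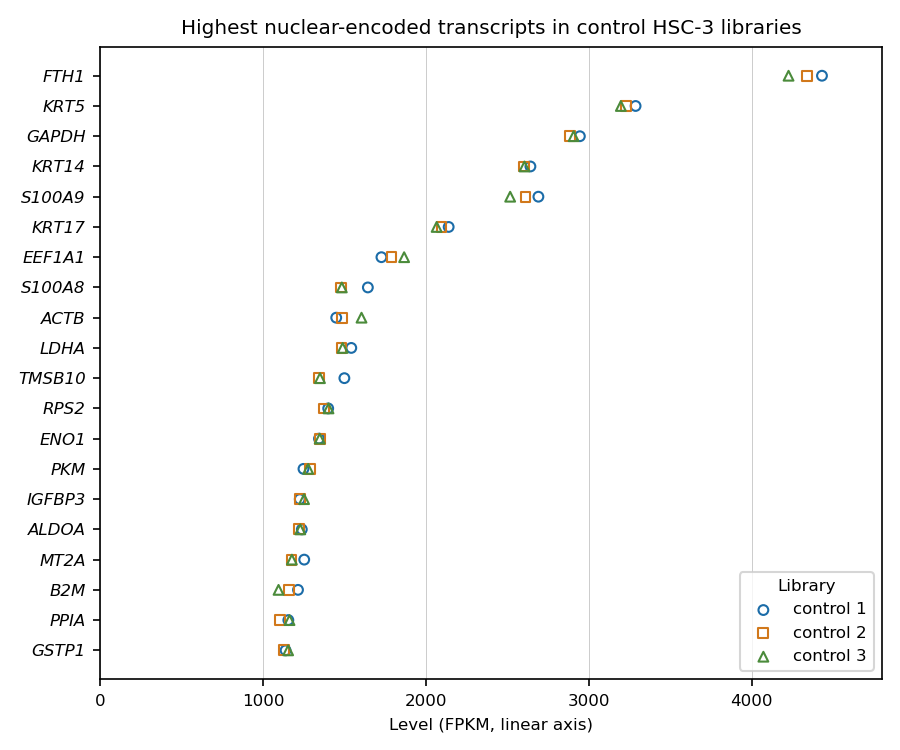
Levels (FPKM, linear axis) of the 20 highest nuclear-encoded genes, with 1 marker for each of the 3 control libraries. FTH1, KRT5 and GAPDH separate from one another in every library, while the genes from S100A8 downwards crowd between 1094 and 1642 FPKM.

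Promoter stretches of 3 of these genes are shown because they differ in base composition and in whether the exact letters TATAA, a form of a core promoter motif, were found. The 100 bases before the RefSeq start are shown for S100A9, EEF1A1 and KRT5, with the letters TATAA in capitals where a search of the gene's own strand found them 45 to 15 bases before the start. TATAA lies in that window in S100A9 and EEF1A1, and in 4.10% of all 35116 promoters in the RefSeq table used. In KRT5 these letters are not in that window, nor are they in GAPDH and S100A8. Variants of the motif were not searched for, and the KRT5 stretch holds the letters ataaaa, so these genes are not shown to lack it. Promoters were matched for 15 of the 20 highest genes, of which 7 hold the motif there; this is under 80% of the set, so the share is void as a check and nothing is read from it.
S100A9, chr1:153357754-153357853, plus strand: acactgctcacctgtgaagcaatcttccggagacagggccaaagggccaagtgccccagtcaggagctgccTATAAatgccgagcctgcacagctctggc
EEF1A1, chr6:73521033-73521132, minus strand: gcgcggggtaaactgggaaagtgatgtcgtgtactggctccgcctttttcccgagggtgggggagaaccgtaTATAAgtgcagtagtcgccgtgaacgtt
KRT5, chr12:52520395-52520494, minus strand: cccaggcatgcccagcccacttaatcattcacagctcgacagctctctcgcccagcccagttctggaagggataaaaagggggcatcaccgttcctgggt
Sequences are from RefSeq on GRCh38.p14, 5′ to 3′ on the gene's strand. The RefSeq start equals the gene's outer end in the authors' table for S100A9 and lies 136 bases inside it for KRT5 and 2765 bases inside it for EEF1A1, so the start used in these cells was not measured. Over the 300 bases that RefSeq gives around each start, the observed over expected ratio of CpG was 0.218 for S100A9, 0.891 for EEF1A1 and 0.301 for KRT5.

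The highest genes were shorter than moderately expressed ones. For the 22 nuclear protein-coding genes with a mean of at least 1000 FPKM the longest annotated transcript had a median of 2057 bases and the gene a median span of 6.13 kb. For the 5467 genes between 1 and 10 FPKM the medians were 4160 bases and 40.3 kb, and for the 4213 silent genes 2014 bases and 12.9 kb. Median GC content was 53.8%, 47.5% and 49% in the same classes. These are descriptions across genes, which are not independent replicates, and FPKM itself divides by length.

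The control libraries carried the markers of basal squamous cells. TP63 had 167, 178 and 173 FPKM, KRT6A, a keratin of activated keratinocytes, had 660.0, 664 and 659.7 FPKM, and KRT15, a keratin of basal cells, had 292, 303 and 298 FPKM. Of 40 genes listed for squamous basal identity, 39 were expressed (97.5%), beside 55.3% of all protein-coding genes, and 21 of them had a mean above 100 FPKM. The median level of the list was 111 FPKM, beside 2.27 FPKM over all protein-coding genes. The list holds TP63, KRT6A and KRT15 themselves and was written with earlier results of these data known. Its share and median are therefore a description and no independent support. The exception was SOX2, a transcription factor of squamous progenitors, at 1.39, 1.27 and 0.898 FPKM. After KRT5, KRT14 and KRT17, S100A2 was the highest member at 1007, 909 and 808 FPKM, and it was lowest in library 3. The list covers the adhesion of basal cells to the basement membrane: COL17A1, a hemidesmosomal collagen, had 343 ± 3.57 FPKM, and the integrin chains ITGA6 and ITGB4, which pair in hemidesmosomes, had 189 ± 3.47 and 138 ± 1.82 FPKM. These genes, like others of the list beyond its 5 highest, were chosen after their values were seen.

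Genes of late differentiation were mostly detected, at low levels. Of 34 genes of suprabasal and cornified layers, 14 were expressed (41.2%, beside 55.3% of all protein-coding genes) and 3 had 0 counts, a smaller share than the 21.1% of all protein-coding genes. The median was 0.619 FPKM, beside 2.27 FPKM over all protein-coding genes, and no mean was above 100 FPKM. The highest were SPRR1A, a cornified envelope precursor, at 33.1, 41 and 39.7 FPKM, the protease KLK5 at 33.1, 28.7 and 30 FPKM and SPRR1B at 27.9, 25.8 and 27.4 FPKM. RHCG, an ammonium transporter of suprabasal oral epithelium, had 15.8, 18.8 and 17.5 FPKM and KRT10, the suprabasal type I keratin, had 13.7, 13.9 and 13.3 FPKM. Of the major envelope and filament proteins, chosen after their values were seen, IVL (involucrin) had 0.272, 0.345 and 0.151 FPKM, FLG (filaggrin) had 0.0738, 0.0593 and 0.0722 FPKM, and LORICRIN and the cross-linking enzyme TGM3 had 0 counts. KRT13 and KRT4, the suprabasal keratin pair of oral mucosa, had 1.4 ± 0.323 and 0.626 ± 0.0337 FPKM. In bulk RNA, fewer cells of a type and less RNA per cell cannot be told apart, so these low levels do not say whether few cells or all cells held the transcripts.

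Genes of simple or glandular epithelium were expressed for 6 of 26 members (23.1%), with 9 at 0 counts, beside 55.3% expressed and 21.1% silent over all protein-coding genes. KRT18 had 85.4, 81.7 and 84.3 FPKM and KRT8, its type II partner in simple epithelia, had 77.1, 71.6 and 78 FPKM. The adhesion molecule EPCAM had 62 ± 1.13 FPKM, the mucin MUC1 37.2 ± 1.3 FPKM, KRT19 7.27 ± 0.0557 FPKM and the factor FOXA1 1.61 ± 0.228 FPKM. The glandular and intestinal genes MUC5AC, TFF1, TFF3, KRT20 and CDX2 had 0 counts in all 3 libraries.

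A list of 20 mesenchymal genes was split. Of these, 11 were expressed (55.0%, beside 55.3% of all protein-coding genes) and 4 had 0 counts. The matrix protein genes TGFBI, at 227, 238 and 237 FPKM, and SPARC, at 127, 124 and 128 FPKM, led the list. TNC had 50.5 ± 0.517 FPKM, the fibronectin receptor chain ITGA5 46.9 ± 1.22 FPKM and SNAI2, a transcription factor also present in basal keratinocytes, 34.9, 31.8 and 33.1 FPKM. Expressed at lower levels were S100A4, FN1, TWIST1, ACTA2 and CDH2, with means of 1.31 to 9.64 FPKM. The filament gene VIM, at 0.564, 0.903 and 0.584 FPKM, stayed under 1 FPKM. So did the transcription factors ZEB1, at 0.134, 0.0967 and 0.0995 FPKM, and ZEB2, at 0.133, 0.241 and 0.177 FPKM.

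Most markers of cell types that the culture should not hold were at or near 0. Beside the counts below, 55.3% of all protein-coding genes were expressed and 21.1% had 0 counts. Of 9 endothelial genes, 0 were expressed and 5 had 0 counts, among them PECAM1 and KDR, and the summed level of the list was 0.508 to 0.927 FPKM. Of 15 leukocyte genes, 8 had 0 counts, among them CD3D, CD3E and TYROBP, and PTPRC, the pan-leukocyte antigen, had 0, 0 and 0.0087 FPKM. The expressed pair on that list were the lysosomal CD68 at 38.1 ± 0.602 FPKM and the lipopolysaccharide co-receptor CD14 at 14.3 ± 0.765 FPKM. Of 9 fibroblast genes, 2 were expressed and 1, COL6A3, had 0 counts. LUM had 12.2 ± 0.519 FPKM and COL1A1 had 7.31 ± 0.671 FPKM, while COL3A1 had 0, 0 and 0.0192 FPKM. FAP, COL1A2 and DCN stayed under 1 FPKM but were detected in every library, with means of 0.377, 0.291 and 0.278 FPKM. Of 15 melanocyte and neural genes, MBP had 9.94 ± 0.694 FPKM and NEFL 6.88 ± 0.434 FPKM, and 8 had 0 counts, among them SOX10, MLANA and GFAP. Of 8 muscle genes, the troponin gene TNNT1 had 16.8 ± 0.469 FPKM and 6 had 0 counts. The members named here at 0 or near 0 were chosen after their values were seen.

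**Figure D2:**
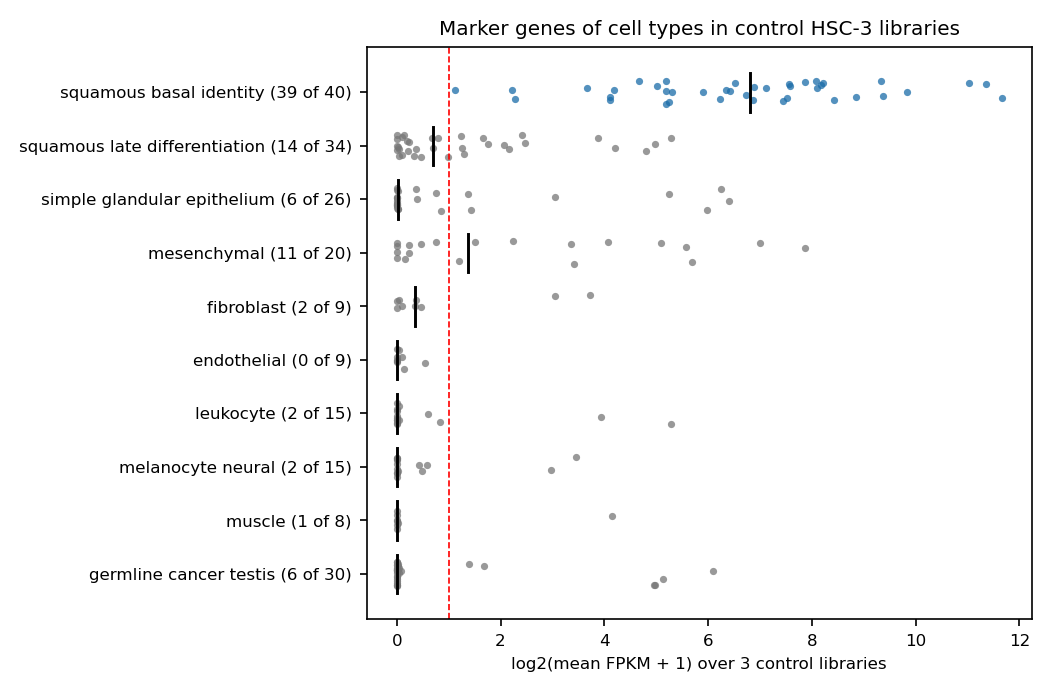
Mean level of each member of 10 marker lists as log2(mean FPKM + 1) over the 3 control libraries, with 1 point per gene, the list's median as a black bar, 1 FPKM as a dashed line and the number of expressed members in brackets. The squamous basal list lies to the right, with 39 of 40 members expressed, and the medians of the glandular, endothelial, leukocyte, neural and muscle lists lie at or near 0.

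A few genes of the germ line, which most adult tissues do not express, were expressed. Of 30 germline and cancer-testis genes, 6 were expressed (20%) and 17 had 0 counts, beside 55.3% expressed and 21.1% silent over all protein-coding genes. MAGEA4, a cancer-testis antigen on the X chromosome, had 68.8, 65.1 and 67.6 FPKM. MAGEA3 and MAGEA6 had 30.5 ± 0.154 and 30.2 ± 1.83 FPKM, but these are near-identical copies whose reads could have been split between them. IGF2BP3, an oncofetal RNA-binding protein, had 33.9 ± 0.703 FPKM, PRAME 2.22 ± 0.363 FPKM and IGF2BP1 1.61 ± 0.016 FPKM. In the same gene family, MAGEA1, MAGEA10 and MAGEA12 had 0 counts.

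The HOX genes record position along the body axis. Expressed members numbered 6 of 11 in HOXA (54.5%), 4 of 10 in HOXB (40%), 5 of 9 in HOXC (55.6%) and 4 of 9 in HOXD (44.4%), beside 55.3% of all protein-coding genes. The median levels of the 4 clusters were 2.34, 0.734, 1.55 and 1.51 FPKM in the same order, beside 2.27 FPKM over all protein-coding genes. The highest were HOXD10 at 26.9, 27.4 and 28.7 FPKM, HOXD11 at 15.3 ± 0.382 FPKM and HOXD9 at 11.5 ± 0.56 FPKM, which are neighbours. The leaders of the other clusters by mean were HOXC10 at 6.18 ± 0.291 FPKM, HOXB7 at 5.37 ± 0.551 FPKM and HOXA10 at 4.81 ± 0.46 FPKM. The range of HOXA10 overlapped that of HOXA3, at 4.63 ± 0.569 FPKM, so their order is not resolved.

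Both keratin families were led by basal members. KRT5 held 80.4% ± 0.259 of the summed FPKM of 26 type II keratins and KRT6A a further 16.4%. KRT14 held 49.9% ± 0.182 of 28 type I keratins and KRT17 40.1%, and the FPKM ranges of KRT14 and KRT17 did not overlap. Of the type II genes 7 were expressed and 4 had 0 counts, and of the type I genes 9 were expressed and 12 had 0 counts. Beside these and the clusters below, 55.3% of all protein-coding genes were expressed and 21.1% had 0 counts. The share of type II genes at 0 counts was below that of all protein-coding genes. Together the 54 keratins held 2.31% ± 0.0103 of the summed FPKM. In the type I cluster on chromosome 17, from 40654665 to 41624842, 8 of 62 genes were expressed. Its 34 genes for hair keratin-associated proteins included 0 expressed and 30 with 0 counts. KRT15, KRT14, KRT16 and KRT17, all above 100 FPKM, stood at the far end of that cluster among KRT13, KRT19 and KRT9, of which the highest had 7.27 FPKM. In the type II cluster on chromosome 12, from 52168996 to 52952906, KRT6A and KRT5 were direct neighbours, and KRT71, on the other side of KRT5, had 0 counts.

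The epidermal differentiation complex on chromosome 1, from 151982915 to 153632039, held both abundant and silent genes. Of its 64 protein-coding genes, 20 were expressed and 17 had 0 counts, beside 55.3% expressed and 21.1% silent over all protein-coding genes. The S100A genes, for calcium-binding proteins, were expressed for 14 of 17 members, and 9 had a mean above 100 FPKM. The late cornified envelope genes (LCE) were expressed for 0 of 18 members, with a highest mean of 0.373 FPKM. The small proline-rich genes (SPRR) were expressed for 4 of 11 members, with a highest mean of 37.9 FPKM. The S100A genes lie at both ends of the locus and the LCE and SPRR genes between them. The peptidoglycan-recognising PGLYRP3 and PGLYRP4, just before S100A9 and chosen after their values were seen, had 10.1, 8.62 and 9.67 FPKM and 19.0, 19.7 and 20.8 FPKM in the 3 libraries.

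**Figure D3:**
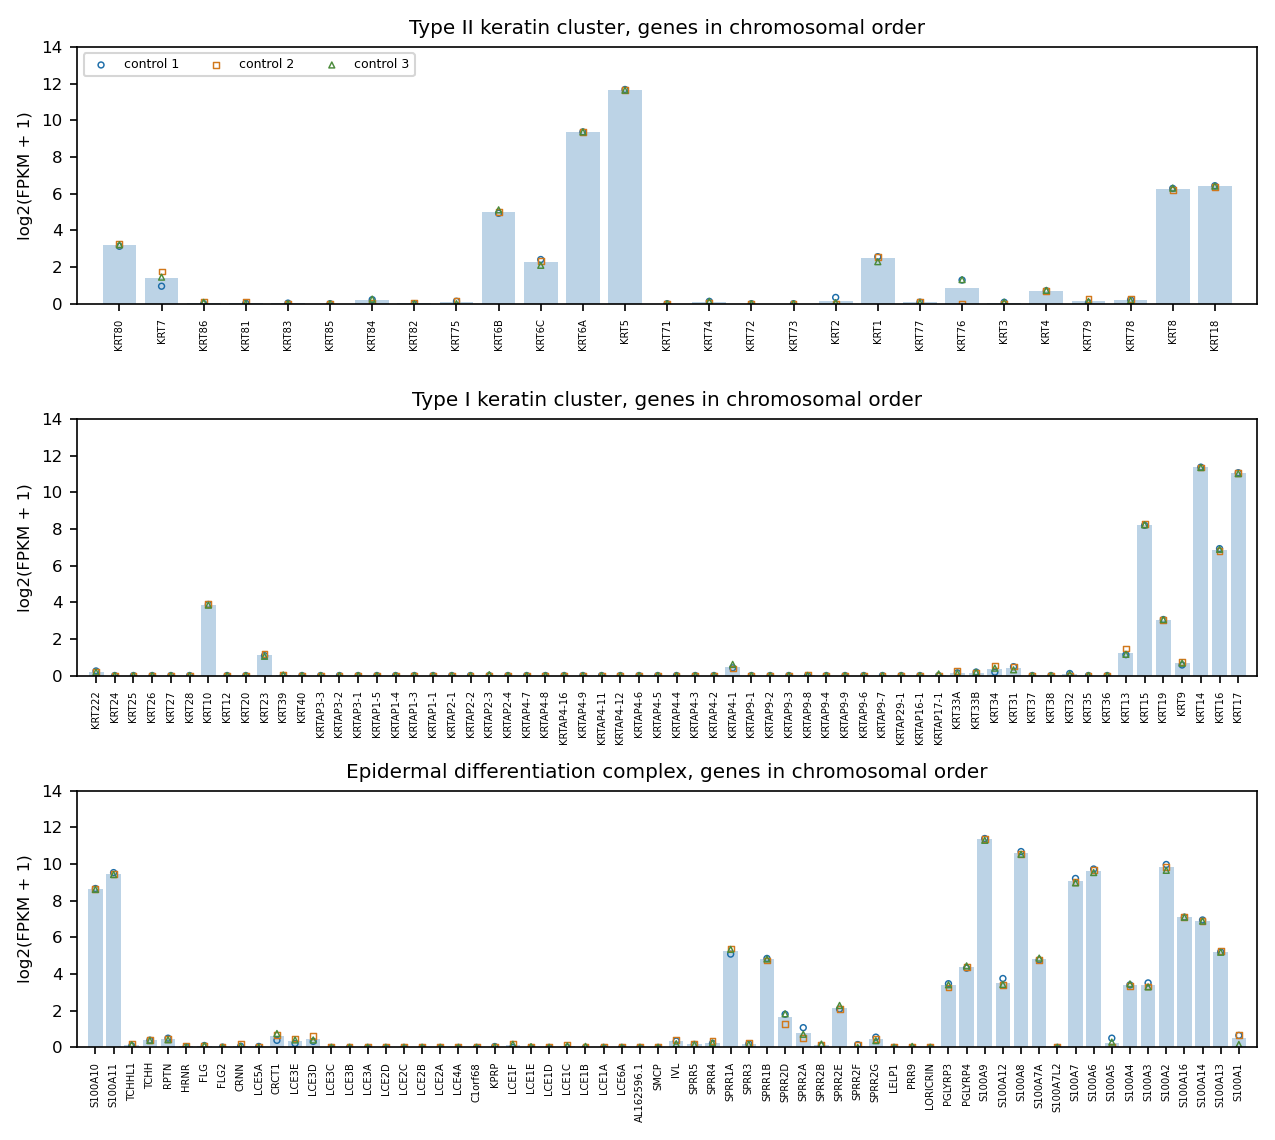
Levels as log2(FPKM + 1) of every protein-coding gene of 3 gene clusters in chromosomal order, with bars at the mean and 1 marker per control library. KRT6A and KRT5 stand out in the type II keratin cluster, and 4 genes above 100 FPKM stand at one end of the type I cluster beyond the hair keratin genes. In the epidermal differentiation complex the S100A genes flank the LCE genes, with a highest mean of 0.373 FPKM, and the SPRR genes, with a highest mean of 37.9 FPKM.

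Paralogue choice was described in 50 gene families with 300 members, of which 175 were expressed and 46 had 0 counts, beside 55.3% expressed and 21.1% silent over all protein-coding genes. In 22 families 1 gene held at least 75% of the family's summed FPKM in every library. The leader was the same in all 3 libraries in 50 of 50 families, and in 0 families did its FPKM range overlap that of the second gene. Shares within a library do not depend on how that library was scaled.

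Among transcription factors, MYC, at 66.8 ± 1.02 FPKM, held 97.3% ± 0.164 of its family, and MYCL had 1.72 ± 0.0778 FPKM. TFAP2A, an AP-2 factor of ectodermal epithelia, held 74.5% ± 0.858, just under the threshold of 75% in 2 libraries and over it in 1. GRHL2 and GRHL1, factors of epithelial barrier genes, were near equal, at 16.3 ± 0.0861 and 15.2 ± 0.221 FPKM.

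Of the growth factor receptors, EGFR had 276, 292 and 297 FPKM and held 92.0% ± 0.282 of the ERBB family, with ERBB2 at 14.3 ± 0.342 FPKM. FGFR3 led the FGF receptors at 25, 25.9 and 27.5 FPKM, followed by FGFR2 at 7.92 ± 0.711 FPKM. FGFR1, chosen after its values were seen, had 0.0288, 0.0454 and 0.0245 FPKM. NOTCH3 led the Notch receptors at 32.6 ± 0.843 FPKM, above NOTCH1 at 13.3 ± 0.193 FPKM. TGFB1 held 85% ± 0.847 of the TGF-beta ligands at 15.7 ± 0.869 FPKM.

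Among adhesion genes, CDH3 (P-cadherin, found in basal cells) had 114, 115 and 124 FPKM and CDH1 (E-cadherin) had 67.0, 62.2 and 63.1 FPKM, so CDH3 was higher in every library. The desmosomal cadherins DSG3 and DSG2 had 35.7 ± 1.8 and 29.3 ± 1.85 FPKM, and DSC3 held 90.9% ± 0.147 of the desmocollins. CLDN1, a tight junction claudin of stratified epithelium, held 84.1% ± 0.118 of 20 claudins at 456 ± 4.78 FPKM, and GJB2 held 76.6% ± 0.529 of the beta connexins at 231 ± 0.674 FPKM. Laminins are basement membrane proteins on which basal cells sit. LAMB3 held 87.6% ± 0.23 of the laminin beta chains at 271 ± 2.54 FPKM. In the alpha chains LAMA5 led, at 81.5 ± 2.86 FPKM, above LAMA3 at 37 ± 1.15 FPKM.

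Several metabolic families were held almost wholly by 1 gene. ENO1 held 98.5% ± 0.0593 of the enolases, ALDOA 95.6% ± 0.173 of the aldolases and the glucose transporter SLC2A1 99.9% ± 0.0178 of its class. PGK2 and COX4I2, the second members of the phosphoglycerate kinases and of cytochrome oxidase subunit IV, had 0 counts. HK1 led the hexokinases at 56.7 ± 0.144 FPKM, above HK2 at 31.3 ± 0.725 FPKM. FTH1 held 86.0% ± 0.281 of the ferritin chains, with FTL at 707 ± 8.35 FPKM, and MT2A held 68.7% ± 1.19 of 11 metallothioneins, with MT1X at 378 ± 34.7 FPKM. SFN (stratifin), an epithelial adaptor protein, led its family at 641 ± 9.69 FPKM, above YWHAZ at 334 ± 14.2 FPKM.

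The lactate dehydrogenases give this choice between neighbours on chromosome 11. LDHA, which encodes the M subunit, lies at 18394560 to 18408425, and LDHC, the testis gene, starts at 18412318 on the same strand. LDHA had 1540.5, 1480.1 and 1488 FPKM, while LDHC, chosen after its values were seen, had 0.0979, 0 and 0 FPKM. LDHB, on another chromosome, had 242, 228 and 227 FPKM. The 100 bases before the start sites of the neighbours are shown to set the promoter of the abundant gene beside that of the nearly absent one, with no capitals because TATAA is in neither window.
LDHA, chr11:18394463-18394562, plus strand: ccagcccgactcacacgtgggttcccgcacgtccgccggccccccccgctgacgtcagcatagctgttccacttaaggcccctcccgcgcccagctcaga
LDHC, chr11:18412218-18412317, plus strand: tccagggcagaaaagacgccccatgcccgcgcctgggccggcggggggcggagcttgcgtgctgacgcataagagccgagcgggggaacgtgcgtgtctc
Over the 300 bases that RefSeq gives around each start (GRCh38.p14), GC content was 70.0% for LDHA and 58.0% for LDHC, and the observed over expected ratio of CpG was 0.825 for LDHA and 0.991 for LDHC.

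**Figure D4:**
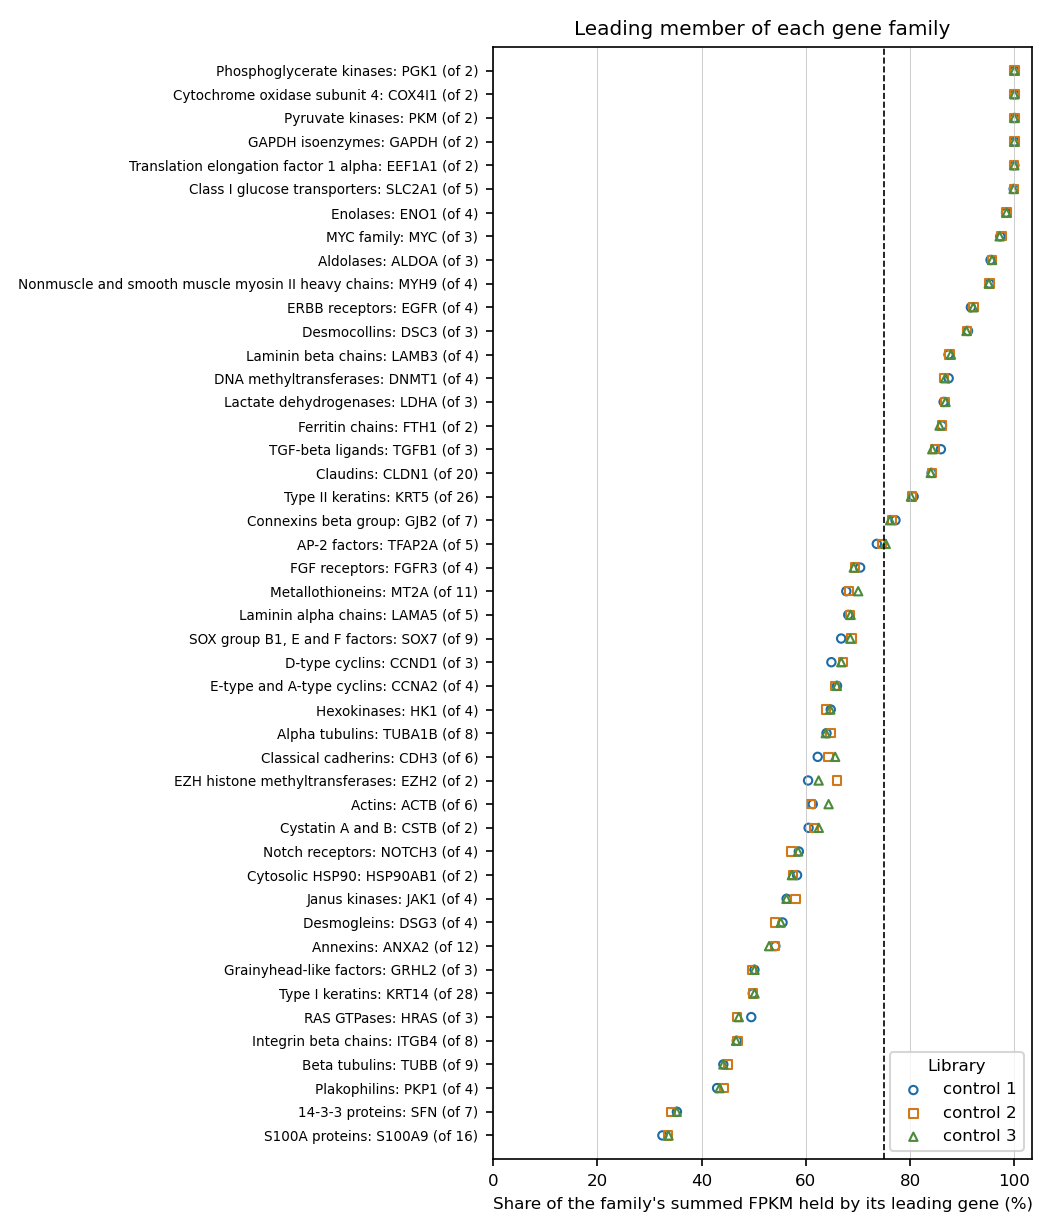
Share (%) of the family's summed FPKM held by its leading gene in 46 of the families, with 1 marker per control library, the number of family members in brackets and 75% as a dashed line. The markers of a family lie close together, 20 of those shown lie beyond 75% in every library, and the lowest leader share among those shown is that of S100A9, at 33.2% of the S100A family.

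IRF9 and its pathway were expressed in the control cells, without overexpression. All 12 genes of interferon signalling on the list were expressed (100%, beside 55.3% of all protein-coding genes). Among them were the interferon gamma receptor chains IFNGR1 at 108 ± 2.6 FPKM and IFNGR2 at 52.4 ± 1.1 FPKM, and STAT2, which joins IRF9 in the complex ISGF3, at 40.8 ± 0.532 FPKM. Of 21 interferon genes, 19 had 0 counts, beside 21.1% of all protein-coding genes. The 1 expressed was IFNE, at 1.71, 1.22 and 1.49 FPKM. IFNB1 was detected in every library, at 0.0525, 0.0517 and 0.04 FPKM from 5, 4 and 3 counts. Reads that fit several IFNA genes may not have been counted, so their 0 counts are uncertain. IRF9 had 15.5, 14.8 and 24.2 FPKM, higher in library 3 than in the other 2. On counts it had 26.9, 24.5 and 43.7 CPM. AL136295.5, an annotated gene on the same strand that overlaps both IRF9 and its neighbour RNF31, had 92.6, 89.6 and 73.1 CPM, lowest in library 3. The 3 genes together had 123.3, 118.1 and 120.6 CPM, with a coefficient of variation (CV) of 2.15%. How the counting split reads between them was not tested.

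Non-coding classes held little of the signal: long non-coding RNAs 1.31% ± 0.0337 of the summed FPKM and pseudogenes 1.06% ± 0.0138. Outside the mitochondrial genome the highest non-coding genes were MTATP6P1, a nuclear copy of mitochondrial sequence, at 851 ± 23 FPKM and AC243919.1 at 546 ± 19.2 FPKM. NEAT1, the scaffold RNA of paraspeckles, had 653, 360.1 and 423 FPKM, highest in library 1, while the CV of its counts was 3.03% after scaling to library totals. RPS2P5 and RPS28P7, copies of ribosomal protein genes, had 282 ± 4.52 and 193 ± 8.02 FPKM. SNHG29 had 197 ± 5.06 FPKM and GPX1, a glutathione peroxidase filed as a polymorphic pseudogene, 117 ± 4.21 FPKM. Levels of copies are uncertain, since their reads may come from the parent gene.

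MIR205HG, the host transcript of miR-205, was the seventh highest of these, at 147, 148 and 140.4 FPKM. The microRNA miR-205 is characteristic of squamous and basal epithelium, and its mature form was not measured in these libraries. Its mature sequence from RefSeq (GRCh38.p14, chr1:209432166-209432187, plus strand) is shown because its host was among the 8 highest non-coding genes, with the seed, bases 2 to 8, in capitals.
hsa-miR-205-5p: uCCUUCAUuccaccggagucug

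Some silent genes lay in blocks. Of the families counted by symbol with at least 15 genes, all 22 PRAMEF genes, 38 of 39 beta-defensin genes (DEFB), 357 of 388 olfactory receptor genes (OR) and 84 of 94 hair keratin-associated genes (KRTAP) had 0 counts, beside 21.1% of all protein-coding genes. The expressed olfactory receptor gene was OR2A7, at 2.22, 2.1 and 2.78 FPKM. The longest unbroken run of silent protein-coding genes held 39 genes on chromosome 8, from DEFA6 to USP17L3, of which 18 were defensin genes. Further runs held 33 KRTAP genes on chromosome 21 (30281309 to 31038476) and 32 genes on chromosome 11 (55723776 to 56491395), of which 30 were olfactory receptors. Another run held 30 genes on chromosome 1 (12644547 to 13514003), of which 22 were PRAMEF. A run of 14 genes on chromosome 19 (21722771 to 23274221) differed in kind, with 13 zinc finger genes (ZNF). Many of these genes are near-identical copies, and reads that fit several copies may not have been counted, so 0 counts are uncertain there. Among the autosomes and the X, the expressed share was highest on chromosome 14, at 62.1%, and lowest on the X, at 40%. These genes and runs were chosen after their values were seen.

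The 3 libraries resembled each other closely. Across the 11024 expressed protein-coding genes the CV of FPKM had a median of 5.02%, and of CPM 4.21%. Between pairs of libraries Pearson's r on the log2 scale was 0.996 in all 3 pairs and Spearman's rho 0.995. These are correlations across genes, which share library and depth, and are given as a description. No library was a copy of another: pairs differed by 9.81 to 13.5 times the counting variance. The common biological coefficient of variation (BCV), the spread beyond counting error from edgeR, was 0.106 over 17190 genes. For BCVs that edgeR estimated gene by gene, the median was 0.0344 above 100 CPM and 0.0559 from 10 to 100 CPM. It was 0.185 from 1 to 10 CPM and 0.288 under 1 CPM. Library 3, the shallowest, had the highest FPKM for 43.1% of the expressed genes.

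The steadiest genes with a mean of at least 50 FPKM were NAA50, POLD2, HSPD1, PGK1, IL1B, COPB2, AP2M1 and XRCC5. NAA50, an N-terminal acetyltransferase, had 58.9, 59 and 58.9 FPKM, a CV of 0.073%, while its CV on CPM was 1.53%. The cytokine gene IL1B had 93, 93.3 and 93.1 FPKM. A CV over 3 values is imprecise and describes these libraries.

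The 8 most variable protein-coding genes with a mean of at least 5 FPKM were of 2 kinds. In the first, the gene overlapped others on its strand. AC010132.3 had 0.174, 28.4 and 0.0155 FPKM, a CV of 171.5%, and C7orf25, which it overlaps, had 14.8, 3.32 and 14.3 FPKM, low where the other was high. Summed with C7orf25 and PSMA2, the locus had 291, 280.4 and 285 CPM, a CV of 1.94%, whereas AC010132.3 and C7orf25 alone summed to 31.5, 87.9 and 29.3 CPM, a CV of 67.0%. RPL36A-HNRNPH2, AL157935.2, C17orf49 and RNASEK-C17orf49 had CVs of 62.4% to 80.3%, and the summed CPM of their loci had CVs of 1.95% to 3.27%. For RPL36A-HNRNPH2, at 2.55, 15.1 and 6.36 CPM, the sum of 276, 266 and 262 CPM came mostly from its partners. The same held in every library for the summed loci of AC010132.3, AL157935.2, C17orf49 and RNASEK-C17orf49. Whether reads were exchanged between the genes of these loci was not tested. In the second kind, the counts were steady and FPKM was not. ITM2B, which encodes a membrane protein of the BRICHOS family, had 85.9, 338 and 92.9 FPKM from 71003, 67700 and 57948 counts, and the CV of its CPM was 1.8%. AP1M1, a subunit of a clathrin adaptor, had 3.82, 12.6 and 4.97 FPKM with a CV of 5.2% on CPM. Library 2 was the high one for both.

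Over all expressed protein-coding genes, 72 had an FPKM CV above 30%. Of these, 34 (47.2%) overlapped another protein-coding gene on the same strand, beside 1290 (11.7%) of the 11024 expressed genes, and 10 others had a CV under 10% on counts. How the authors' counting and length estimates contributed was not tested.

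**Figure D5:**
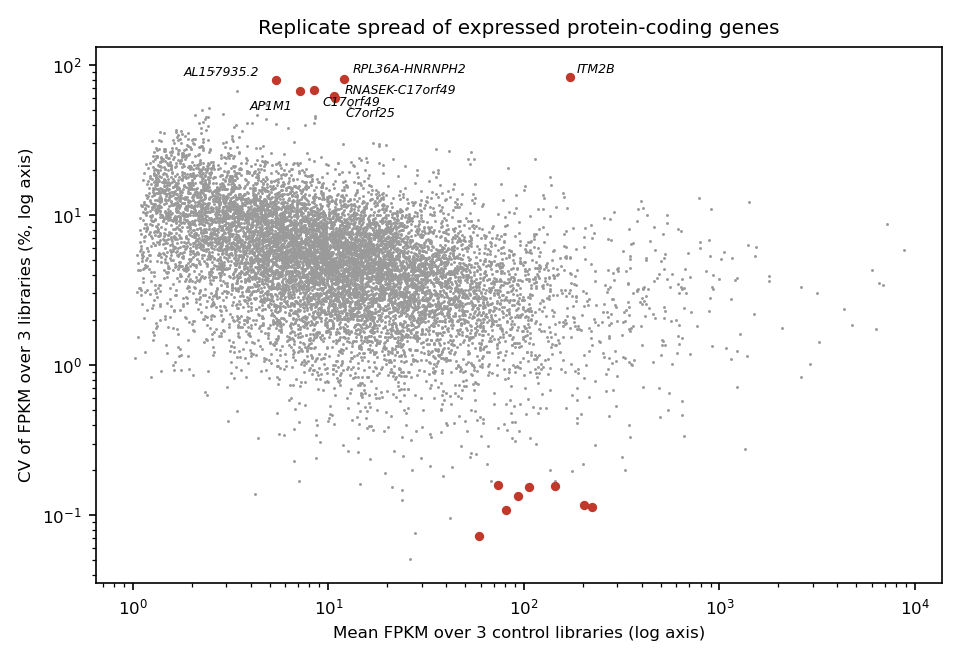
CV of FPKM (%, log axis) against mean FPKM (log axis) over the 3 control libraries for the expressed protein-coding genes, with 7 of the 8 most variable genes of the rule named and the 8 steadiest in red below. AC010132.3 lies outside the plotted set because it was under 1 FPKM in 2 libraries, and the cloud narrows from a median of 9.7% at 1 to 3 FPKM to 2.58% at 100 to 1000 FPKM.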

How the data were processed

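Total RNA of HSC-3 was extracted with Trizol and made into Illumina TruSeq libraries, per the labels' protocols. The values deposited by the authors are whole-number counts for each gene, and a table of gene symbols, classes, positions and values taken here as FPKM. The header of the latter names no unit; for genes with 1 transcript and over 200 counts, 66.4% to 68.1% of the deposited FPKM values lay within 1% of counts over length times one constant per library. Tools listed in the submitters' processing notes, with no role or order, are HISAT2, StringTie, edgeR, Trimmomatic, FastQC and CASAVA 1.8, and the build is GRCh38. Neither the annotation release nor strand use in counting is given in the sources, so overlapping and antisense genes are uncertain.

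The 3 control columns were joined by gene identifier in Python 3.11.15 with pandas 2.3.3. CPM is counts over library totals. CVs and SDs are over 3 libraries. BCV came from edgeR 4.0.16 (R 4.3.3) with an intercept alone, TMM scaling and its filter on low counts, and was tested on simulated data; DESeq2 1.42.0 gave alternative size factors. Transcript lengths and GC are those of the longest transcript in GENCODE 29, which matched at least 98.8% of genes in each class. No test was made, since 1 group is described.

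The 18 gene lists (298 genes matched) and 50 families were chosen with earlier results of these data known. Named genes were the 20 highest nuclear genes, mitochondrial genes, the markers of the control cells, leader and second member of each family described, the 5 highest of each list, expressed members of other-cell lists, the 8 highest non-coding genes, and the 8 highest and 8 lowest CVs above means of 5 and 50 FPKM. Others were chosen after their values were seen. Some genes the rule takes are named in none of the text or figures and are not reported here. Alternatives changed thresholds, units, scaling and filters, and left out each library. The values taken with overlapping genes summed, and the CVs on CPM of the most variable genes, were added after the data were seen.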

Additional observations from a re-analysis of the deposited data

How the results depend on the processing

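Counts of expressed (11074 to 11104), silent (4473 to 4558) and basal identity genes (39 to 40), families led by 1 gene (22 to 22), the share of FPKM in the 100 highest genes (34.6% to 35.2%) and the BCV (0.104 to 0.109) changed little on leaving out each library in turn. Other thresholds and units gave 7804 to 13455 expressed and 4213 to 6130 silent genes, all within 1.5 times. The 100 highest genes held 25.8% of FPKM without mitochondrial genes and 22.1% of counts. Families led by 1 gene numbered 40 at a share of 50% and 12 at 90%. The median CV of 5.02% was 3.85% to 4.35% over 2 libraries, 4.16% on CPM with TMM, 4.17% with DESeq2 size factors, 3.74% for means of at least 10 FPKM and 7.33% with no filter; as an SD of log2(FPKM + 1) or log2(FPKM + 0.1) it was 0.0637 or 0.0712. BCV was 0.170 with no filter and 0.0865 for protein-coding genes. On leaving out each library, the means of 274 named genes moved by a median of 1.16%; the largest shift was 26.5%, for TUBA1A without library 3, and NEAT1 moved by 18.2% without library 1. Depth limits the silent class, and 3 libraries limit every SD. No paired analysis was possible because 1 group is described and no test was made.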

Other observations

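Single interferon-stimulated genes had high levels in the control cells. Of 21 interferon genes there, 19 had 0 counts, while IFNE and IFNB1 were detected in every library. Whether interferon from these cells bears on the levels below was not tested. IFI27 had 1070.0, 1034 and 967 FPKM, IFI6 had 673, 629.9 and 632 FPKM, ISG15 had 287, 284 and 283 FPKM and the antiviral GTPase MX1 had 157, 162 and 158 FPKM. These genes, and all below, were chosen after their values were seen, and no list of such genes was counted.

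Genes of secreted factors and of other proteins ranged from high levels to under 1 FPKM. The urokinase gene PLAU had 298, 292 and 292 FPKM, against 12, 13 and 13.5 FPKM for its receptor PLAUR. PTHLH, encoding parathyroid hormone-related protein, had 176 ± 0.348 FPKM and the neutrophil chemokine CXCL8 102, 106 and 106 FPKM, while IL6 had 6.11 ± 0.374 FPKM. The antimicrobial protease inhibitors SLPI and PI3 had 322 ± 18.6 and 134 ± 3.87 FPKM. Of the matrix metalloproteinases, MMP14 had 93.9 ± 1.32 FPKM and MMP1 3.86 ± 0.414 FPKM, and MMP9 had 0, 0.101 and 0.11 FPKM. TERT, the catalytic subunit of telomerase, was detected in every library at 0.509, 0.443 and 0.486 FPKM, from 171, 184 and 142 counts. The cell cycle inhibitor genes CDKN2A and CDKN2B had 25.5 ± 0.177 and 23 ± 0.486 FPKM, and SMAD4 had 1.88 ± 0.157 FPKM.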
